A study of Bos grunniens with 12 samples.

Results

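N6-methyladenosine (m6A) is a methyl mark on adenosines inside mRNA. It is placed by a methyltransferase complex, can be removed by demethylases, and is bound by reader proteins that act on splicing, translation and decay of the transcript. The mark is known to gather around stop codons and in 3' UTRs, the untranslated ends of mRNAs where proteins and small RNAs that set stability and translation also bind, and in the testis m6A factors are needed for germ cells to develop. Described here are the m6A peaks of yak (Bos grunniens) testis that the authors called different between 1.5-year-old and 5-year-old animals and that lie, by their annotation, in a 3' UTR. They were chosen by the authors' comparison of IP with input reads between the ages, which made the table, and by position: all peaks of the deposited differential table annotated "3' UTR", of any width, were taken, 257 of 1438 peaks (17.9%, Wilson 95% interval 16% to 19.9%, which covers counting error only), on 248 of 1207 genes with any such peak. The table gives each peak's place, width and gene, and no fold change, p-value, direction or value for an animal, so which age had more m6A at a peak cannot be read from it.

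Testis tissue came from 6 healthy yaks of 1 locality, 3 aged 1.5 years, whose testes were removed by castration, and 3 aged 5 years, sampled soon after slaughter. Age and way of collection therefore cannot be told apart. From each animal 1 library of RNA fragments bound by an antibody against m6A (IP) and 1 library of the fragments before that step (input) were made, 12 libraries in all. Gene levels come from the 6 input libraries, as FPKM (fragments scaled to transcript length and library size). The record names no treatment for either age.

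The ages were taken from the titles and the growth protocol. A stage field in the same record contradicts them for every sample, placing the 5-year animals before sexual maturity and the 1.5-year animals after it. The article calls the younger group immature, as the ages in the titles imply. Elongating spermatid markers were higher in the libraries labelled 1.5 years: TNP1, a transition protein of spermatid chromatin, was at 883, 852 and 879 FPKM in those libraries and at 201, 641 and 550 FPKM in the libraries labelled 5 years. "1.5-year" and "5-year" below mean the libraries so labelled. FPKM summed to between 116187 and 139921 per library. The smallest values step by single fragments, and a smaller step means a deeper library. The step in the other 5 libraries was 0.917 to 1.02 times that in the first 1.5-year library. The fragments behind a value are not in the table. Correlations of log2 values (Pearson, across 12437 genes, which are not independent) were between 0.952 and 0.958 among 1.5-year libraries. The 5-year replicate 1 stood apart, at 0.817 to 0.837 with the 1.5-year libraries, while 5-year replicate 2 was at 0.942 to 0.947 with them and at 0.868 with replicate 1.

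Most of the 3' UTR peaks were short. Their median width on the genome was 297 bp (interquartile range 197 to 494 bp), with 96 peaks of at most 200 bp, 101 over 200 and up to 500 bp, 18 over 500 and up to 1000 bp and 42 over 1000 bp. The narrowest lay in KLHDC9, a kelch domain protein (144 bp, chr3:9100541-9100684), NME6, a nucleoside diphosphate kinase family member (145 bp, chr22:10594539-10594683), and, at 147 bp each, BCL10, a signalling adaptor of lymphocytes (chr3:63553338-63553484), and DDX6, an RNA helicase of mRNA decay and storage granules (chr13:58147687-58147833). All coordinates are those of the deposited table, on the LU_Bosgru_v3.0 build.

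Widths run from a peak's start to its end with introns included, and a few peaks were far wider. The widest were those of ARL15, a small GTPase of the ARF family (192801 bp, chr23:59036948-59229748), STX8, a SNARE protein of endosomes (102590 bp, chr19:39132266-39234855), and ZNF592, a zinc finger protein (11160 bp, chr17:23229722-23240881). These 2 widest, in ARL15 and STX8, held 59.2% of the 498866 bp that the 257 peaks cover in sum, and the 42 peaks over 1000 bp held 87.5%. The 215 peaks of at most 1000 bp (83.7%) had a mean width of 290 bp. For the 311 peaks annotated to a 5' UTR or a first exon the median width was 349 bp and 75.2% were of at most 1000 bp. Whether these widths differ was not tested.

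The peaks sat close to the end of their genes, as the annotation that chose them implies. The 3' edge of a peak lay a median of 488 bp (interquartile range 149 to 973 bp) before the 3' end of the gene model that the table assigns to it. Of the 257 peaks, 181 (70.4%) ended within 1000 bp before that point, 10 of them exactly on it, and 16 ran past it, 12 of these by at most 500 bp. A further 41 peaks ended over 1000 and up to 5000 bp before the end, and 19 ended over 5000 bp before it. The centre of the peak fell in the last 10% of the gene model for 182 peaks (70.8%), between the midpoint and that last stretch for 53, past the end for 9 and on the 5' side of the midpoint for 13. Their host models had a median length of 29010 bp, and 143 peaks were on hosts of the plus strand and 114 on hosts of the minus strand. The 188 differential peaks of at most 1000 bp in a last exon lay as close, a median of 442.5 bp before the end. Of them 64.9% had their 3' edge within 1000 bp of the end on either side, against 75.1% of the 3' UTR peaks. Their median width was 250 bp, and no difference was tested.

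**Figure D1:**
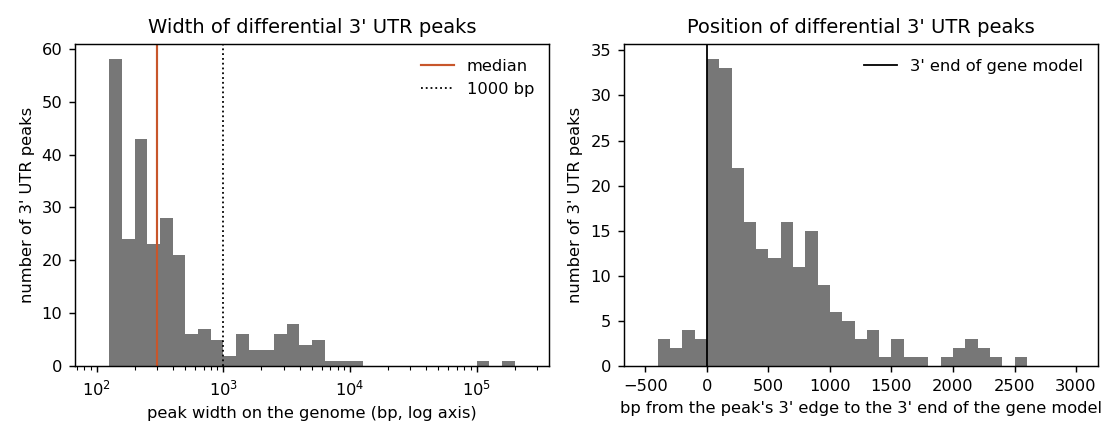
Left, number of differential 3' UTR peaks by width on the genome in bp (log axis, 257 peaks, introns included); the solid line is the median of 297 bp and the dotted line marks 1000 bp. Right, number of peaks by the distance in bp from the peak's 3' edge to the 3' end of its gene model, with positive values before the end, shown from 500 bp past the end to 3000 bp before it; the tallest bars are those next to the end.

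The peaks far from a gene end were a small group in which the assigned gene may not be the one whose 3' UTR is meant. The table assigns each peak to 1 gene and, for exons, also names the gene that the exon belongs to. That gene differed from the assigned one for 47 of 1076 exon peaks (4.37%). For a 3' UTR the table names no such owner, so the same check could not be made. RPL31, a protein of the large ribosomal subunit, carried a 150 bp peak 14881 bp before the end of its 22044 bp model. MCM7, BPTF, DPH1 and DSN1, described below as hosts, belong to this group too. Their peaks ended 72241, 41866, 6520 and 9701 bp before the end of models of 103286, 136749, 17033 and 24996 bp. NAPG, a soluble attachment protein of membrane fusion, carried 1 peak 1251 bp before the end of a model of 12290 bp and another 189988 bp before the end of a model of 215672 bp. The peak of SNX30, a sorting nexin, stopped 28015 bp before the end of a 28086 bp model and so ran over its 5' edge. The peaks of STX8 and ING3, a subunit of histone acetyltransferase complexes, were wider than their gene models of 1648 and 1056 bp. SNX30, STX8 and ING3 were also the 3 host genes listed at 0 FPKM in all 6 input libraries.

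Nearly every host carried a single 3' UTR peak: 239 of 248 genes had 1 and 9 had 2. Those with 2 were SLC37A3, a sugar phosphate exchanger family member, PGM2, a phosphoglucomutase, KIF26A, an unconventional kinesin, CNOT1, the scaffold of the main deadenylase complex, PLCD1, a phospholipase C, SEMA4D, a membrane semaphorin, ENKD1, a protein of centrioles and microtubules, NAPG, and ALKBH2, a DNA repair demethylase. In CNOT1, PLCD1 and ENKD1 the 2 peaks overlapped, for example at chr20:21158770-21159116 and chr20:21158790-21159089 in CNOT1, and merging such peaks left 254. In SEMA4D they lay apart, at chr7:25677500-25677699 and chr7:25679693-25679892, each 200 bp wide.

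Of the 248 hosts, 35 (14.1%) also carried differential peaks elsewhere, 42 in all: 7 in 5' UTRs, 7 in a first exon and 28 in other exons, 7 of these in the last exon. FAM20C, a kinase of the secretory pathway, had the most, with 2 further peaks in its 5' UTR (198 and 297 bp) and 1 in exon 9 of 10 (680 bp), beside its 3' UTR peak of 395 bp (chr26:7353358-7353752) that ended 148 bp before the gene's end. HTT, the huntingtin gene, had further peaks in exon 2 and exon 58 of 66, and ZFP36L2, a protein that binds AU-rich elements and promotes mRNA decay, had 2 in exon 2 of 2, beside its 3' UTR peak (250 bp, chr9:45489969-45490218). DHH, a hedgehog ligand made by Sertoli cells, had 1 in exon 2 of 4, and CNOT1 1 in exon 34 of 51. Hosts shared with peaks of a 5' UTR or first exon numbered 12, which is 4.84% of the 3' UTR hosts and 4.18% of the other list. For genes with peaks of at most 1000 bp in later exons, 11 were shared (4.44% and 2.37%).

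The peaks were spread over 31 chromosomes. Chromosome 5 held the highest number (22 of its 79 differential peaks), followed by chromosomes 19 (18 of 71), 20 (18 of 86) and 7 (17 of 61). As a share of a chromosome's differential peaks, chromosome 17 (15 of 43, 34.9%) was above these.

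The host genes were mostly of middling level in the input RNA. Of the 248, 242 had a mean of at least 0.5 FPKM over the 6 libraries and entered the age test. Their median level was 3.65 FPKM (interquartile range 2.06 to 5.75, over all 248), against 4.34 FPKM (1.76 to 10.4) for all 12437 genes tested, and 26 hosts were above 10 FPKM. The other 6 hosts were LGALS1, a galectin (mean 0.310 FPKM), COA3, a cytochrome oxidase assembly factor (0.0308 FPKM), SLC5A10, a sugar cotransporter (0.0431 FPKM), and the 3 at 0. The tested hosts nearest to the limit were PPP1R3B, a regulatory subunit of protein phosphatase 1 (0.591 FPKM), and RAB30, a small GTPase of the Golgi (0.666 FPKM).

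The 5 hosts with the highest FPKM handle RNA, ribosomes or protein modification. RPL31 was at 134, 141 and 134 FPKM in the 1.5-year libraries and at 240, 138 and 167 FPKM in the 5-year libraries. Its ages overlapped, with 5-year replicate 1 far above the other libraries. CNOT1 was at 66.6, 66.6 and 68.3 FPKM at 1.5 years and at 48.4, 69.1 and 61.9 FPKM at 5 years, again overlapping. FXR1, an RNA-binding protein of the fragile X family, was at 68.3, 63.5 and 65.1 FPKM and then at 30.6, 51.6 and 50.5 FPKM, with each 5-year library below each 1.5-year library. PIAS2, a SUMO ligase and transcription coregulator, had the same order, with 51.9, 44.2 and 43.7 FPKM at 1.5 years and 27.9, 38.8 and 37.4 FPKM at 5 years. DDX6 was at 29.6, 35.3 and 30.4 FPKM and at 42.4, 32.2 and 38.2 FPKM, and the ages overlapped.

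Whether the transcripts that carry these peaks also differ in amount between the ages was then asked. More hosts were higher than lower in the 5-year libraries, most by little, and no host passed correction for multiple tests. Since the input libraries were also the controls when the peaks were called, the counts are a description of the hosts and not independent of how they were chosen. In whole testis RNA, fewer cells of a type and less RNA per cell cannot be told apart. With limma on log2(FPKM + 0.1), fold changes being on that scale, 22 of 242 hosts were higher by more than 1 on the log2 scale at an unadjusted p-value under 0.05 (9.09%, against 4.01% of all genes tested), and 4 were lower by more than that (1.65%, against 5.25%). With a pseudocount of 1 these counts were 5 and 0. At an unadjusted p-value under 0.05 alone, 63 hosts were higher (26.0%, against 14.2%) and 14 lower (5.79%, against 10.9%). The 3 libraries of each age did not overlap, with 5 years higher, for 82 hosts (33.9%, against 19.8%), and with 5 years lower for 23 (9.50%, against 13.9%).

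At an adjusted p-value (Benjamini-Hochberg over all genes tested) under 0.05 the count was 0 hosts, and 4 of all 12437 genes (0.0322%), with a smallest adjusted p-value among hosts of 0.129 by limma. The median log2 fold change of the hosts was 0.24 (interquartile range -0.08 to 0.59) and that of all genes tested 0.04 (-0.31 to 0.37). A fitted log2 fold change above 0 was found for 172 of 242 hosts (71.1%, against 53.5%). Relative to the 1.5-year mean, the hosts' median log2 difference was 0.42 in 5-year replicate 1, 0.09 in replicate 2 and 0.24 in replicate 3, while for all genes tested it was 0.03, 0.02 and 0.09. The 3 libraries of 5 years thus all had a higher host median than gene median, by unlike amounts. Without 5-year replicate 1 the counts past both limits were 9 higher and 1 lower, and without 5-year replicate 2 they were 38 higher and 4 lower, with 55 hosts and 2403 of all genes at an adjusted p-value under 0.05 by limma.

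**Figure D2:**
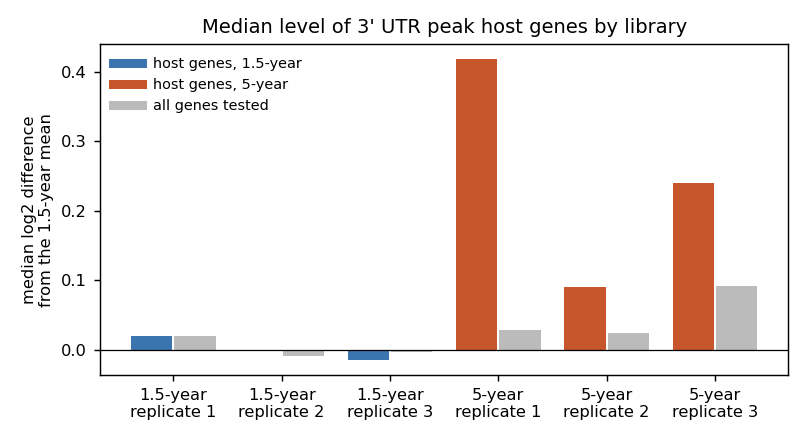
Median difference in log2(FPKM + 0.1) from the mean of the 3 libraries labelled 1.5 years, for each input library, over the 242 host genes tested (coloured bars) and all 12437 genes tested (grey bars). The host medians are 0.42, 0.09 and 0.24 in the 5-year libraries and within 0.02 of 0 in the 1.5-year libraries.

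Genes with differential peaks in other places gave like values. Of 274 tested genes with a peak in the 5' UTR or first exon, 22 were higher and 7 lower past both limits (8.03% and 2.55%, against 4.01% and 5.25% of all genes tested), with a median log2 fold change of 0.21, and of 441 with a peak of at most 1000 bp in a later exon 33 were higher and 7 lower (7.48% and 1.59%), with a median of 0.21. The excess of higher over lower genes was thus not seen in 3' UTR hosts alone, and no difference between these lists was tested. Within the 3' UTR hosts, the 35 with another differential peak had a median log2 fold change of 0.44, with 15 higher and 0 lower at an unadjusted p-value under 0.05 by limma (42.9% and 0%, against 14.2% and 10.9% of all genes tested). The 207 tested hosts without one had a median of 0.22, with 48 higher and 14 lower (23.2% and 6.76%). Hosts of a peak over 1000 bp, 39 tested, had a median of 0.14, with 3 higher and 1 lower past both limits (7.69% and 2.56%).

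**Figure D3:**
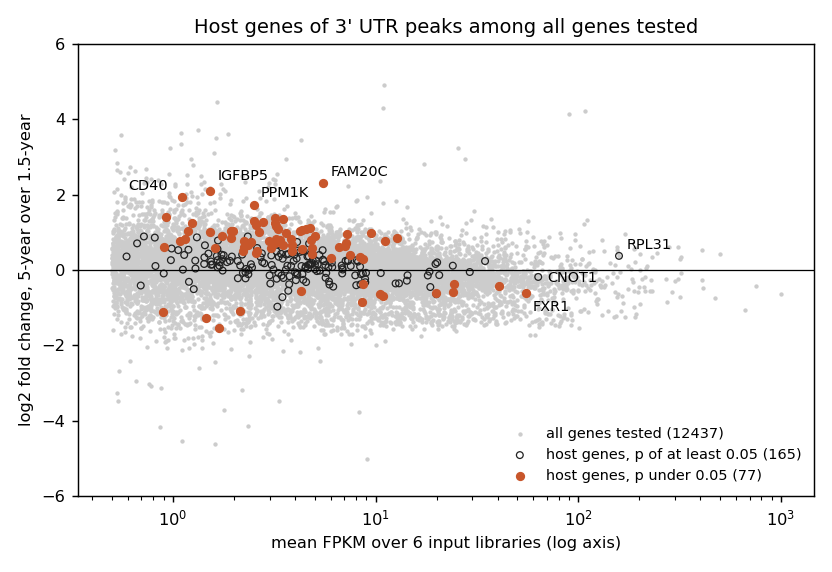
Log2 fold change, 5-year over 1.5-year input libraries (n = 3 each), against mean FPKM over the 6 libraries (log axis). Grey points are all 12437 genes tested, open circles the 165 host genes with an unadjusted limma p of at least 0.05 and filled circles the 77 under 0.05; more filled circles lie above 0 (63) than below (14).

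The hosts with the largest differences upward, among those with an unadjusted p-value under 0.05 and ages that did not overlap, were 8 genes with unlike roles. FAM20C led them, with 1.63, 1.71 and 1.74 FPKM at 1.5 years and 13.4, 5.60 and 9.17 FPKM at 5 years. The SD was 0.0592 FPKM in the 1.5-year libraries and 3.89 FPKM in the 5-year libraries (n = 3 each). Each 5-year library was more than 3-fold above the 1.5-year libraries, and the log2 fold change was 2.32 ± 0.30 (limma SE, n = 3 per age). IGFBP5, which binds insulin-like growth factors, was at 0.406, 0.577 and 0.351 FPKM and then at 3.83, 0.850 and 3.17 FPKM, a log2 fold change of 2.10 ± 0.54. Its 5-year replicate 2 was far nearer to the 1.5-year libraries than the other 2. CD40, a costimulatory receptor of immune cells, was at 0.342, 0.505 and 0.312 FPKM and at 2.72, 1.18 and 1.6 FPKM (1.93 ± 0.36). PPM1K, a mitochondrial phosphatase of branched-chain amino acid breakdown, was at 1.04, 0.810 and 1.41 FPKM and at 4.85, 2.42 and 4.54 FPKM (1.74 ± 0.32). In both genes replicate 2 was the lowest and replicate 1 the highest of the 5-year libraries.

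The other 4 were smaller. IL2RB, the beta chain of the interleukin-2 receptor, was at 0.385, 0.325 and 0.659 FPKM at 1.5 years and at 2.01, 1.03 and 1.12 FPKM at 5 years (log2 fold change 1.40 ± 0.37, SE). PRRG1, a membrane protein with a Gla domain, was at 1.82, 1.74 and 1.55 FPKM and at 5.96, 3.59 and 4.59 FPKM (1.39 ± 0.21). The SD of PRRG1 was 0.14 FPKM at 1.5 years and 1.19 FPKM at 5 years (n = 3 each). SYNE3, nesprin-3 of the nuclear envelope, was at 1.73, 2.04 and 1.66 FPKM and at 8.02, 3.27 and 4.14 FPKM (1.36 ± 0.32). CORO6, of the actin-binding coronins, was at 1.17, 1.36 and 1.52 FPKM and at 5.50, 2.19 and 3.33 FPKM (1.29 ± 0.32). For all 8 the adjusted p-value by limma was between 0.129 and 0.154. Their 3' UTR peaks were 395 bp in FAM20C, 3015 bp in IGFBP5 (chr2:35234038-35237052), 1560 bp in CD40 (chr12:70474199-70475758), 151 bp in PPM1K (chr6:89114461-89114611), 151 bp in IL2RB (chr5:28607602-28607752), 399 bp in PRRG1, running 329 bp past the gene's end (chrX:115635544-115635942), 489 bp in SYNE3 (chr17:64887302-64887790) and 689 bp in CORO6 (chr19:48055515-48056203).

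The 8 largest differences downward by the same rule were smaller. CACNA2D2, an accessory subunit of voltage-gated calcium channels, was at 1.56, 2.62 and 2.04 FPKM at 1.5 years and at 0.481, 1.27 and 0.783 FPKM at 5 years, a log2 fold change of -1.26 ± 0.36 (SE, n = 3 per age). CLIC5, an intracellular chloride channel protein tied to the cortical cytoskeleton, was at 1.10, 1.58 and 1.10 FPKM and at 0.555, 0.436 and 0.582 FPKM (-1.11 ± 0.27). In CLIC5 the 5-year libraries were close together. SRMS, a non-receptor tyrosine kinase, was at 3.11, 2.73 and 2.75 FPKM and at 0.844, 2.32 and 1.12 FPKM (-1.07 ± 0.34). DPH1, of diphthamide synthesis on elongation factor 2, was at 12.0, 8.56 and 12.4 FPKM and at 4.45, 7.86 and 6.04 FPKM (-0.85 ± 0.25). SRMS and DPH1 kept the ages apart by little, since 5-year replicate 2 stood just under the lowest 1.5-year library in each.

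In the remaining 4, 5-year replicate 1 was lowest each time. SMPD4, a neutral sphingomyelinase, was at 13.1, 13.2 and 13.5 FPKM at 1.5 years and at 5.79, 12.2 and 7.69 FPKM at 5 years (log2 fold change -0.69 ± 0.26). KLHDC9 was at 13.2, 12.4 and 12.3 FPKM and at 5.82, 11.9 and 7.75 FPKM (-0.63 ± 0.25). Replicate 2 of the 5-year libraries came within 1 FPKM of the lowest 1.5-year library in both genes. FXR1, whose values are given above, had a log2 fold change of -0.61 ± 0.23. CARHSP1, a cold-shock domain protein that binds mRNA, was at 24.7, 21.6 and 25.3 FPKM and at 11.7, 18.6 and 17.7 FPKM (-0.60 ± 0.21). Adjusted p-values by limma for the 8 were between 0.154 and 0.184. The unadjusted p-values of SRMS, SMPD4, KLHDC9, FXR1 and CARHSP1 went over 0.05 when some single libraries were left out, those of SMPD4 and KLHDC9 for 5 of the 6. Their peaks were short: 151 bp in CACNA2D2 (chr22:12579575-12579725), 149 bp in CLIC5 (chr24:15992266-15992414), 484 bp in SRMS (chr12:47041856-47042339), 249 bp in DPH1 (chr19:45564705-45564953), 149 bp in SMPD4, running 139 bp past the gene's end (chr16:80283813-80283961), 150 bp in FXR1 (chr1:93724523-93724672) and 348 bp in CARHSP1 (chr26:39170500-39170847). DNPEP, an aspartyl aminopeptidase, had a lower log2 fold change than all of these, but its ages overlapped, with 1.13, 2.96 and 3.61 FPKM at 1.5 years and 0.399, 0.644 and 1.43 FPKM at 5 years (named after its values were seen).

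**Figure D4:**
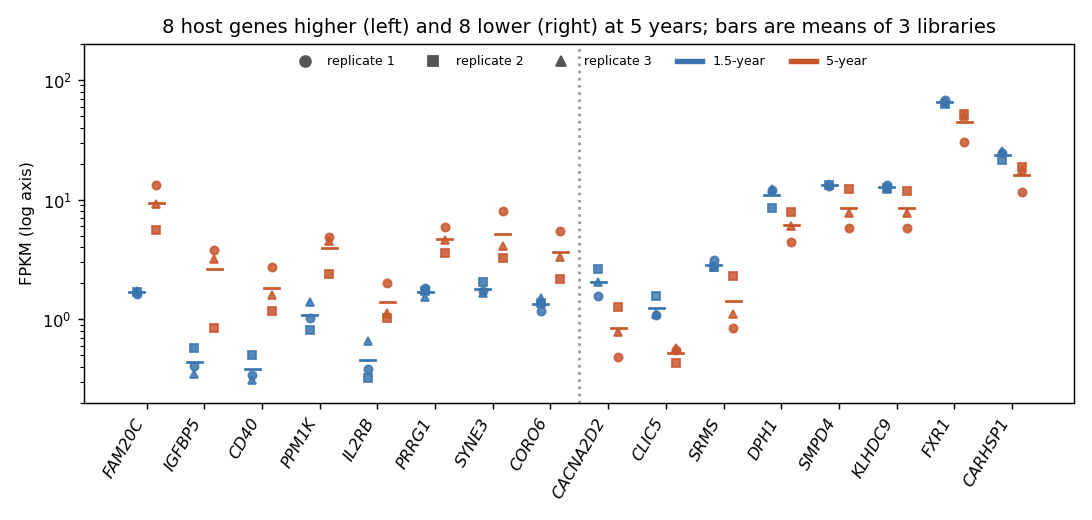
FPKM (log axis) of the 8 host genes with the largest differences upward (left of the dotted line) and the 8 downward (right), in each input library labelled 1.5 years (blue) or 5 years (orange). Marker shapes give the replicate number and bars the mean of 3 libraries; the ages do not overlap in any of the 16 by the rule that chose them, and in 15 of them 5-year replicate 2 is the 5-year library nearest to the 1.5-year libraries.

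Some hosts belong to the machinery that writes or reads m6A or acts on 3' UTRs. Hosts were 1.95% of all genes tested. Of 21 listed m6A factors (writers, erasers and readers), 14 were found in the gene table by symbol and 1 was a host, ZC3H13, a component of the m6A writer complex. Its peak of 3594 bp (chr15:67751034-67754627) ended exactly at the gene's end. ZC3H13 was at 2.96, 2.20 and 2.12 FPKM in the 1.5-year libraries and at 4.83, 3.23 and 4.84 FPKM in the 5-year libraries, so that all 3 were higher at 5 years (log2 fold change 0.79 ± 0.22, SE, adjusted p = 0.154, limma). It was also the only one of the 14 with an unadjusted p-value under 0.05. The summed level of the 14 was between 153 and 164 FPKM at 1.5 years and between 149 and 164 FPKM at 5 years. The largest part of it was the eraser ALKBH5, with means of 74.9 and 68.2 FPKM, so the sum tells little of the others. METTL3, WTAP, YTHDF1 and YTHDF3 were among the listed factors not found by symbol.

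Of 33 factors of 3' end processing, 3' UTR binding and decay found in the table, 3 were hosts. ZFP36L2 was at 6.49, 6.78 and 5.54 FPKM at 1.5 years and at 16.8, 9.73 and 11.9 FPKM at 5 years (log2 fold change 0.99 ± 0.22, adjusted p = 0.154, limma), with each 5-year library above each 1.5-year library. CNOT1 and DDX6, the other two, overlapped between the ages as given above. Over the 33 factors, 7 were higher and 1 lower at an unadjusted p-value under 0.05, against 14.2% and 10.9% of all genes tested. DDX6 carried its peak at the very end of the gene, and the CNOT1 peaks ended 822 and 849 bp before theirs.

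By the gene ontology (GO) terms of the deposited table, the largest groups of hosts were metal-binding proteins and regulators of transcription. The terms are the authors' annotation and only the exact terms listed for a group were counted, with no test. Some do not match a gene's known role, such as a GTPase regulator term on RPL31, and others are missing, so the counts describe the annotation and not how many hosts have a function. As a base for the counts of calls that follow, 26.0% of all hosts were higher and 5.79% lower at an unadjusted p-value under 0.05, and of all genes tested 14.2% and 10.9%. Regulators of transcription numbered 35 of 242 hosts (14.5%, against 9.78% of all genes tested), with 8 higher (22.9% of the group) and 2 lower (5.71%) at an unadjusted p-value under 0.05. PIAS2 and CARHSP1 were the 2 lower ones, but the p-value of PIAS2 went over 0.05 when any of 4 single libraries was left out and with the replicate number as a block. MCM7, a subunit of the replicative helicase, was at 18.1, 19.3 and 18.7 FPKM at 1.5 years and at 22.2, 20.2 and 22.3 FPKM at 5 years. Zinc and metal ion binding proteins numbered 66 (27.3%, against 26.7%), with 17 higher (25.8% of the group) and 1 lower (1.52%). RNA-binding proteins numbered 16 (6.61%, against 5.33%), with 3 higher (18.8% of the group) and 1 lower (6.25%), FXR1. Chromatin genes numbered 5 (2.07%, against 0.901%), among them BPTF, a nucleosome remodelling subunit, at 7.75, 7.14 and 6.86 FPKM and then 7.44, 7.39 and 8.68 FPKM, and CHD9, a chromodomain helicase, at 3.60, 3.97 and 3.31 FPKM and then 4.95, 3.79 and 4.84 FPKM. Both overlapped between the ages.

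The smaller groups held few hosts each. Genes with a term for spermatogenesis, the acrosomal vesicle, the sperm flagellum or cell differentiation, the last not limited to germ cells, numbered 4 (1.65%, against 3.41%), with FXR1 and SRMS lower and 0 higher. Both of these entered by the term for cell differentiation alone. The others were GOLGA1, a golgin with the acrosomal term, at 4.05, 4.36 and 4.19 FPKM and then 3.27, 4.32 and 4.39 FPKM, and BNC1, a zinc finger protein with the spermatogenesis term, at 3.62, 3.73 and 3.94 FPKM and then 2.74, 3.52 and 3.53 FPKM. The ubiquitin pathway numbered 6 hosts (2.48%, against 2.55%), with 3 higher; KCTD10, a substrate adaptor, was at 5.96, 7.09 and 6.71 FPKM and then at 9.81, 6.77 and 7.44 FPKM. Cell cycle genes numbered 6 (2.48%, against 2.37%), with 2 higher, and small GTPase regulators 4 (1.65%, against 1.11%), with 3 higher. DAB2IP, a Ras GTPase activating protein counted in both, was at 3.62, 3.54 and 3.02 FPKM and then at 9.37, 4.76 and 5.96 FPKM, the ages not overlapping (log2 fold change 0.91 ± 0.25, adjusted p = 0.154, limma). Adhesion and matrix genes numbered 4 (1.65%, against 1.65%), for example PLXNB2, a plexin receptor, at 4.54, 5.70 and 5.12 FPKM and then 6.66, 5.78 and 5.68 FPKM. Receptors numbered 4 (1.65%, against 1.17%), with 2 higher, and cytoskeletal genes 2 (0.826%, against 2.65%). One of the latter was MSN, moesin, a linker of actin to the membrane, at 0.647, 0.888 and 0.811 FPKM and then 2.01, 0.934 and 1.62 FPKM, and the other PDXP, a phosphatase, at 1.50, 1.92 and 1.30 FPKM and then 2.64, 1.03 and 1.6 FPKM. The kinase terms counted (protein kinase activity, its serine/threonine form and protein phosphorylation) stood on 1 host, FAM20C (0.413%, against 1.88%), and the terms transmembrane transport and ion transport on 0 (against 0.378%). Hosts that are kinases or carriers by name lacked them: SRMS had tyrosine kinase terms, ROCK2 and PRKCI had terms of retroelements, SLC25A29 had terms for single amino acids and SLC37A3 had terms of a Rab GTPase.

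Of the hosts with 2 peaks, PGM2, SEMA4D and NAPG were higher at 5 years at an unadjusted p-value under 0.05 with no overlap of the ages. At that p-value 26.0% of all hosts and 14.2% of all genes tested were higher. Ages that did not overlap, with 5 years higher, were found for 33.9% and 19.8%. PGM2 was at 2.55, 2.51 and 2.88 FPKM at 1.5 years and at 5.21, 3.36 and 4.38 FPKM at 5 years (log2 fold change 0.67 ± 0.19, adjusted p = 0.154, limma). SEMA4D was at 1.00, 0.888 and 0.950 FPKM and then at 2.90, 1.32 and 2.11 FPKM (1.01 ± 0.29, adjusted p = 0.154, limma). In both, 5-year replicate 1 was the highest library. SLC37A3 was at 1.68, 1.73 and 1.69 FPKM and then at 2.40, 1.67 and 1.93 FPKM, and ENKD1 at 3.85, 3.11 and 3.51 FPKM and then at 2.19, 3.25 and 3.61 FPKM, so that the ages overlapped in each. NAPG was at 6.66, 5.53 and 6.91 FPKM and then at 9.49, 7.06 and 9.0 FPKM, with 5-year replicate 2 only just above the highest 1.5-year library. Its unadjusted p-value went over 0.05 when any of 5 single libraries was left out. KIF26A, at 0.569, 0.531 and 0.298 FPKM and then 1.47, 0.710 and 0.742 FPKM, also kept the ages apart. So did PLCD1, at 1.40, 1.32 and 1.19 FPKM and then 2.18, 1.42 and 2.44 FPKM. Both had an unadjusted p-value over 0.05 by limma. In ALKBH2 the ages overlapped, at 1.60, 1.09 and 0.990 FPKM and then 2.72, 1.37 and 1.22 FPKM. ARL15, host of the widest peak, was at 2.41, 3.13 and 3.03 FPKM and then at 4.84, 2.25 and 2.80 FPKM. ZNF592 was at 3.48, 3.98 and 4.47 FPKM and then at 2.98, 4.01 and 3.65 FPKM, and NME6 at 3.11, 3.74 and 3.12 FPKM and then at 1.85, 4.19 and 2.15 FPKM. These 3 also overlapped, and 5-year replicate 1 was the highest library in ARL15 and the lowest in NME6.

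Markers of some testis cell types also differed between the ages, spermatid markers being lower at 5 years and Sertoli and peritubular or stromal markers higher. At an unadjusted p-value under 0.05, 14.2% of all genes tested were higher and 10.9% lower. All 5 tested markers of elongating spermatids were lower at 5 years by that limit, their summed level being between 1195 and 1239 FPKM at 1.5 years and between 270 and 878 FPKM at 5 years, and 5 of 6 tested round spermatid markers were lower. Of 7 tested Sertoli cell markers 6 were higher (summed level over the list 79.0 to 93.8 FPKM at 1.5 years and 114 to 263 FPKM at 5 years), and of 7 peritubular and stromal markers 5 were higher (24.2 to 27.3 and 35.3 to 58.8 FPKM). Spermatocyte markers held 0 of 8 in either direction by limma (SYCP3, of the synaptonemal complex, was at 5.61, 6.95 and 7.70 FPKM and then 10.2, 7.62 and 7.52 FPKM), spermatogonia markers 1 of 6 higher, Leydig cell markers 1 of 3 lower, macrophage markers 2 of 5 lower and endothelial markers 0 of 4. No erythroid marker reached the limit for testing. No listed marker found in the table was at 0 in all libraries.

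One marker is itself a host. DHH, on the Sertoli list, was at 2.74, 2.61 and 1.79 FPKM at 1.5 years and at 6.43, 3.43 and 4.71 FPKM at 5 years (log2 fold change 0.98 ± 0.27, adjusted p = 0.154, limma), with the ages not overlapping, and its 3' UTR peak was 290 bp wide (chr5:76708412-76708701). The part of these cell types in the host levels was not tested.

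**Figure D5:**
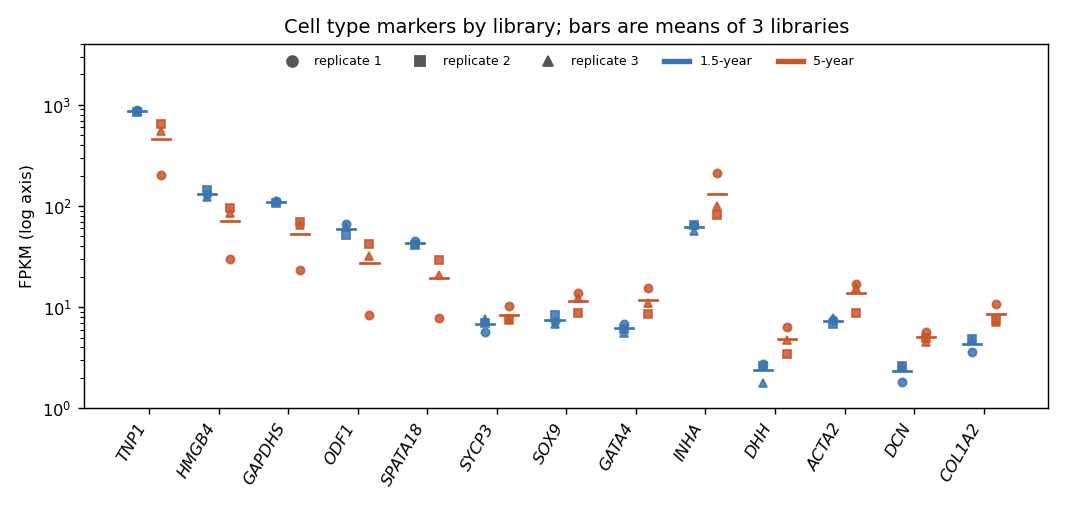
FPKM (log axis) of 13 cell type markers in each input library labelled 1.5 years (blue) or 5 years (orange), with marker shapes for replicates and bars for the mean of 3 libraries: from left, spermatid genes (TNP1 to SPATA18), the spermatocyte gene SYCP3, Sertoli cell genes (SOX9 to DHH) and peritubular and stromal genes. TNP1 is at 201 FPKM in 5-year replicate 1 and at 550 and 641 FPKM in the other 5-year libraries, all below the 1.5-year libraries.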

How the data were processed

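Testis RNA of 6 yaks was sequenced as IP and input libraries. Per the methods and processing notes, the authors trimmed reads with Trimmomatic, aligned them with HISAT2 2.0.4 to LU_Bosgru_v3.0 and used MeTDiff both to find peaks over the input and to contrast the ages. ChIPseeker gave each peak its feature and gene. The handling of replicates is not given in the sources used here. The authors deposited 1 FPKM value per gene and input library; the program is not stated. Deposited widths in bp equal end minus start plus 1, introns included.

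Groups follow the ages in titles. From the files, the 12437 genes whose mean reached 0.5 FPKM were tested on log2(FPKM + 0.1) by limma 3.58.1, run in R 4.3.3 (lmFit, eBayes with trend, two-sided, Benjamini-Hochberg). Each SE of a fold change is that of limma, from a variance shared by both ages and drawn toward a trend over all genes tested. With 3 against 3 libraries an exact permutation test cannot go below p = 0.1, so none was run. On simulated data of that table, 80.5% of genes given a log2 change of 2 and 16% of those given 1 were called at an adjusted p-value under 0.05. Noise there was drawn separately for each gene and library, with the same SD at both ages, and only a small part of the genes was changed. Differences shared by many genes of 1 library were not modelled, so these shares may not hold for the real libraries. In the real fit FAM20C and IGFBP5, at 2.32 and 2.10, had adjusted p-values of 0.129 and 0.154 by limma. Figures used Python 3.11.15 and matplotlib 3.10.9.

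Members, gene lists and alternatives were chosen with earlier results of these data known. Named were the 8 largest differences each way among hosts with an unadjusted p-value under 0.05 and no overlap of ages, hosts with 2 peaks, hosts of the narrowest and widest 3 peaks, the 2 highest hosts of each GO group, hosts on a gene list and the 5 highest hosts; all other genes named, such as EDNRA, ZNF395, HTT, DNPEP and hosts near the FPKM limit, were named after their values were seen. Of the hosts, 100 carry a symbol that stands on more than 1 identifier, and values are those of the identifier with the peak. Not analysed here were reads, IP values, single-age peak lists and motifs in peaks.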

Additional observations from a re-analysis of the deposited data

How the results depend on the processing

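The median log2 fold change of host genes stayed above 0 and above that of all genes tested under each alternative run, from 0.15 without 5-year replicate 1 to 0.34 without 5-year replicate 2. The count of hosts higher past both limits (22) was 5 with a pseudocount of 1, and that of hosts lower (4) was then 0; it was 17 to 24 and 3 to 5 under the other pseudocount, filters, scalings, variance model and peak choices. With 1 library left out in turn, the counts were 9 to 38 higher and 1 to 4 lower, and the count at an adjusted p-value under 0.05 was 0 to 55, the lowest counts without 5-year replicate 1 and the 55 without 5-year replicate 2; the cause was not tested. With the replicate number as a block the counts were 22 higher, 4 lower and 0 at an adjusted p-value under 0.05, and FXR1, NAPG, PIAS2 and MSN passed an unadjusted p-value of 0.05 no longer. The numbers only name samples: deviations of same-numbered libraries of both ages correlated at -0.02, -0.09 and 0.01. Quantile scaling took the log2 fold change of FXR1 nearer to 0, from -0.61 to -0.36. Without genes of the GO term for RNA-directed DNA polymerase activity, an alternative chosen after seeing the data, metal ion binding hosts were 18.5%, against 14.3% of genes. Numbers, widths and host counts of peaks moved little with merging or the width limit. Motif alternatives were not run, as no genome of this build was used here. Fragments behind FPKM values are unknown, which limits hosts near 1 FPKM most.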

Other observations

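Outside the gene groups above, EDNRA, the endothelin A receptor of smooth muscle and stromal cells, was a host whose libraries were close within each age. It was at 2.19, 2.02 and 2.00 FPKM at 1.5 years and at 4.92, 4.16 and 4.54 FPKM at 5 years (log2 fold change 1.10 ± 0.15, adjusted p = 0.129, limma). It also carried a differential peak of 547 bp in its 5' UTR. It was named after its values were seen. The hosts also held 3 semaphorins of class 4, membrane ligands of plexin receptors, a group picked after its values were seen. Their ages did not overlap, with 5 years higher, as in 33.9% of all hosts and 19.8% of all genes tested. SEMA4C was at 0.841, 0.804 and 0.648 FPKM and then at 1.61, 0.926 and 1.09 FPKM, SEMA4F at 0.646, 0.585 and 0.754 FPKM and then at 2.65, 1.09 and 1.69 FPKM, and SEMA4D is given in the report. PLXNB2, a plexin, was a host too.

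By the KEGG pathways of the deposited table, 71 tested hosts had at least 1 pathway. Herpes simplex virus 1 infection held 18 of them (25.4%, against 24.4% of tested genes with a pathway), pathways in cancer 8 (11.3%, against 5.02%) and axon guidance 3, the semaphorins (4.23%, against 1.61%). Some pathways do not match a gene's known role, such as taste transduction on LSM1, which has an RNA-binding term. The shares thus describe the annotation, and no difference was tested. The GO term for RNA-directed DNA polymerase activity, an enzyme of retroelements, stood on 26 of 242 tested hosts (10.7%) and on 1798 of all 12437 tested genes (14.5%). ZNF395, a zinc finger protein and the 1 transcription regulator past both limits, was at 2.76, 2.75 and 2.80 FPKM at 1.5 years and at 8.24, 4.30 and 6.27 FPKM at 5 years.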
